A study of Homo sapiens with 5 samples.

Results

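Molecular chaperones help other proteins fold and keep unfolded ones from clumping. The genes described here encode heat shock proteins, DNAJ co-chaperones, the subunits of the cytosolic chaperonin CCT and the BAG proteins. They were picked by gene symbol alone (DNAJA, DNAJB, DNAJC, HSPA, HSPB, HSPD, HSPE, HSPH, HSP90, CCT2 to CCT8, TCP1 and BAG1 to BAG6), which gave 95 of the 26485 genes in the count files. Of the endoplasmic reticulum members only HSPA5, HSP90B1, DNAJB9, DNAJB11 and DNAJC3 were left out by the rule, as were antisense genes. The 95 also hold 6 pseudogenes and 3 read-through genes. Counts came from 5 RNA libraries read at transcript 3' ends, all made from SW480 cells, a line long grown from a human colon cancer. Cells of both groups carried dCas9-KRAB, in which a Cas9 unable to cut DNA brings a repressor domain to the guide's target. In 3 libraries the cells had been transduced with a guide against AKAP12, and in 2 with control guides. RNA was taken 48 hours after seeding. The labels' titles call the groups shAKAP12 and shControl, which names another silencing method than the treatment protocol does. They do not say whether replicates were separate cultures or how many guides or clones were used, so the p-values rest on the spread among the libraries alone, and that spread may be technical.

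In the chaperone cycle, HSP70 proteins hold and release unfolded stretches under ATP. DNAJ proteins bring them clients and switch on their ATPase, and nucleotide exchange factors (BAG proteins, HSP110 proteins and HSPBP1) reset them. HSP90 completes the folding of kinases and hormone receptors, small heat shock proteins hold aggregating proteins, and the ring-shaped chaperonins CCT (cytosol) and HSPD1 with HSPE1 (mitochondria) fold proteins inside a chamber. Many of these genes are switched on by the transcription factor HSF1, which binds repeats of GAA and TTC called heat shock elements. Cancer cells often hold high levels of HSP70 and HSP90.

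AKAP12, the gene targeted, had 1159, 1063 and 1008 CPM in the knockdown libraries, against 2870 and 1550 CPM in the controls. CPM are counts scaled to library size and corrected with TMM factors, throughout unless stated otherwise. All knockdown libraries were below both controls, but edgeR did not call the gene (log2 fold change -1.04, SE 0.31, adjusted p = 0.0513, threshold 0.05). Without control 1 it was -0.52 and without control 2 it was -1.42.

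Total counts were 6890868 to 9311026 in the knockdown and 4935096 and 8670141 in the controls. The chaperone genes took 2.79% to 2.99% of them in the knockdown and 2.50% and 2.7% in the controls. That share is without TMM factors. With TMM factors their summed level was 28018, 25719 and 28525 CPM in the knockdown, against 30163 and 26822 CPM in the controls. Only the unscaled share thus had all knockdown libraries above both controls. A count of 0 allows up to 0.322 to 0.435 CPM in the knockdown and 0.608 and 0.346 CPM in the controls, taking 3 counts as the limit and covering counting error only. These limits were scaled to total counts without TMM factors, so they are not on the scale of the other CPM values. The 2 controls stood apart from each other: control 1 was at least 2-fold above control 2 in 8 and at least 2-fold below it in 13 of the 80 chaperone genes tested, whereas the knockdown libraries spanned 2-fold or more in 3 of the 80. Of 13 colorectal epithelial markers 12 had reads, and their summed level was 1062 to 1351 CPM in the knockdown, against 710 and 1211 CPM in the controls. KRT8 passed the test (143, 227 and 268 CPM in the knockdown, against 69.1 and 54.9 CPM in the controls; log2 fold change 1.78, edgeR adjusted p = 0.0195) and the other 9 tested did not. CDX1 was at 0 in all libraries, KRT20 and GPA33 had at most 0.49 CPM, and CDH1, VIL1 and CDH17 had at most 7.59 CPM. Markers of other cell types also had reads: 6 of 6 fibroblast markers (summed level 412 to 486 CPM in the knockdown, 328 and 423 CPM in the controls), 5 of 5 blood markers (70.1 to 85.7 CPM in the knockdown, 53.4 and 87.1 CPM in the controls) and 4 of 4 endothelial markers (45.4 to 57.3 CPM in the knockdown, 47.8 and 71.1 CPM in the controls). The part of these reads in the results below was not tested, and in bulk RNA fewer cells of a type and less RNA per cell cannot be told apart.

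Chaperone genes moved both ways in the knockdown. HSPA1A and HSPA1B (inducible HSP70), HSPA13, HSPB11, CCT4, CCT8, DNAJA3 and DNAJC19 rose, and HSP90AB1, DNAJB1, DNAJC4, DNAJC18, DNAJC30 and HSPBP1 fell. Of the 95 genes, 80 had enough reads to be tested, 8 rose and 6 fell, and 66 did not pass the edgeR threshold. The filter on low counts removed 15 genes, of which 6 had no read in any library and none had more than 9 in one library. The share called, 17.5% of those tested, is to be read against 22.6% of all 14536 genes tested (11.2% higher and 11.4% lower), so these genes were not called more often than genes at large. Their median log2 fold change was -0.05, against 0.04 over all genes tested.

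**Figure D1:**
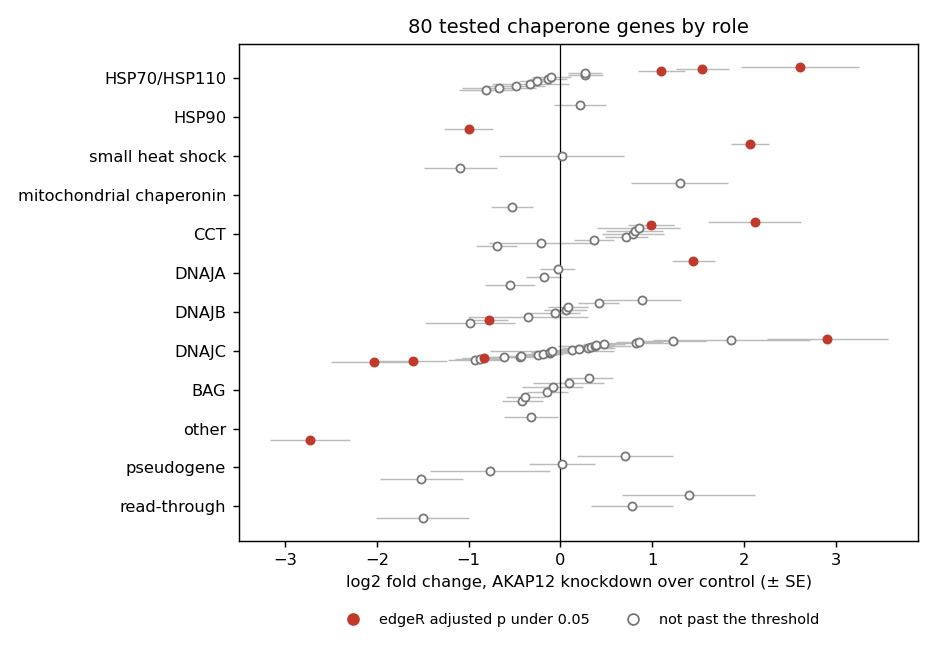
Log2 fold change of each of the 80 tested chaperone genes, AKAP12 knockdown over control, with its SE, grouped by role from top to bottom; filled points passed an edgeR adjusted p of 0.05. The 14 filled points lie on both sides of 0, and no BAG, mitochondrial chaperonin, pseudogene or read-through gene is filled.

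The groups did not overlap in 52 of the 80 tested genes, 30 with all knockdown libraries above both controls and 22 below, and all 14 called genes were among them. Over all genes tested 60.1% did not overlap (31.6% above and 28.5% below), so this too is near the background. Scaling by library size alone gave all genes a median log2 fold change of 0.23 in place of 0.04, and the chaperone calls became 11 higher and 3 lower, beside 11.5% higher and 6.76% lower over all genes. In that setting HSP90AB1 (edgeR adjusted p = 0.0533), DNAJB1 (0.114) and DNAJC30 (0.0830) missed the threshold. Without any one of the knockdown libraries no gene of the whole table passed in edgeR. In these fits 17 to 20 of the 79 or 80 chaperone genes tested had an unadjusted p under 0.05. That is beside 3774 to 4109 of the 14215 to 14324 genes tested. In the authors' deposited table, 12 of 81 chaperone genes with an adjusted p were higher and 11 lower at 0.05, against 25.3% of all its genes.

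**Figure D2:**
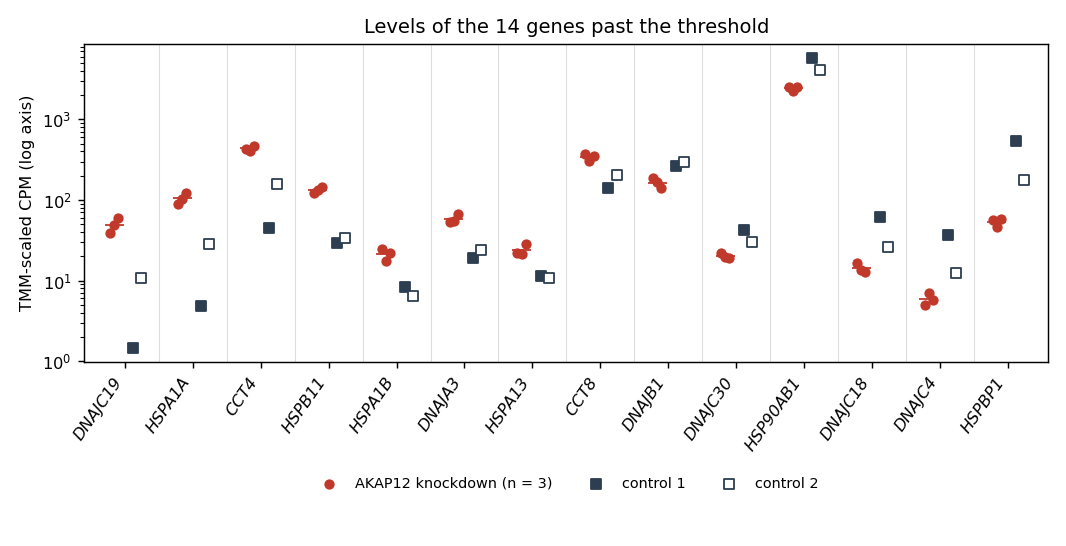
TMM-scaled CPM (log axis) of the 14 chaperone genes past the threshold in each library; circles are the 3 knockdown libraries with a line at their mean, squares the 2 controls. In each gene the knockdown libraries lie on one side of both controls. Control 1 lies far from control 2 for DNAJC19, HSPA1A and CCT4, and also for HSPBP1, DNAJC4 and DNAJC18.

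The inducible HSP70 genes rose most within the HSP70 and HSP110 group. HSPA1A (chromosome 6, 31815514 to 31817942, hg38, plus strand) had 89.6, 103 and 122 CPM in the knockdown, against 4.90 and 28.2 CPM in the controls. The knockdown libraries lay close together and the controls differed by more than 5-fold, control 1 being lower on 20 reads. The log2 fold change was 2.61 (SE 0.64, edgeR adjusted p = 0.0330), or 1.89 without control 1 and 4.41 without control 2. HSPA1B, which encodes the same protein from a neighbouring gene (31827735 to 31830254, plus strand), had 24.8, 17.3 and 21.8 CPM in the knockdown, against 8.33 and 6.42 CPM in the controls. Here the controls lay close together, and the log2 fold change was 1.54 (SE 0.29, edgeR adjusted p = 0.0208), 1.73 without control 1 and 1.35 without control 2. The copies share sequence: 72.6% of the 50-base windows of the longest HSPA1A transcript occur in HSPA1B. In the last 500 bases, which 3' end libraries read, the share is 22.2% for HSPA1A and 1.11% for HSPA1B. With the reads of both copies summed the level was 126 ± 15.5 CPM (SD, n = 3) in the knockdown, against 13.2 and 34.6 CPM in the controls, a 5.18-fold rise (log2 fold change 2.37, edgeR adjusted p = 0.0183). It was 1.86 without control 1 and 3.24 without control 2. The annotation places both copies also on alternate versions of chromosome 6, where reads matching several versions may have gone uncounted.

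The promoters of HSPA1A and HSPA1B are shown because both genes rose, and windows of DNAJB1, HSP90AB1 and HSP90AA1 because the first 2 of these fell while HSP90AA1 did not pass. Each run is a RefSeq window on GRCh38.p14 from 250 bases before to 50 bases after a transcription start, read 5′ to 3′ on the gene's strand. The windows are chr6:31815293-31815592 (HSPA1A, plus), chr6:31827488-31827787 (HSPA1B, plus), chr19:14518348-14518647 (DNAJB1, minus, 1 of 3 windows), chr6:44247693-44247992 (HSP90AB1, plus, 1 of 3 windows) and chr14:102086995-102087294 (HSP90AA1, minus, 1 of 2 windows). Capitals mark every GAANNTTC or TTCNNGAA, the 2-unit heat shock element on either orientation; overlapping matches run together.
HSPA1A: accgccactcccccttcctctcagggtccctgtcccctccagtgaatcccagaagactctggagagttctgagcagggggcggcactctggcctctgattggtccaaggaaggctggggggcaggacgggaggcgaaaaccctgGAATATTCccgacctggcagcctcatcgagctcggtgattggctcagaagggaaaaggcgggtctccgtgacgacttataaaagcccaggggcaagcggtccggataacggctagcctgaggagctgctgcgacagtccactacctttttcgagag
HSPA1B: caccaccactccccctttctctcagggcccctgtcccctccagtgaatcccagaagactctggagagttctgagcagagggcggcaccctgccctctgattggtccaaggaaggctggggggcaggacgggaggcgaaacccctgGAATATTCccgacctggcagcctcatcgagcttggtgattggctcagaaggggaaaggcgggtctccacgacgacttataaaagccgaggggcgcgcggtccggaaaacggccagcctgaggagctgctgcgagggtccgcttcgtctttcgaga
DNAJB1: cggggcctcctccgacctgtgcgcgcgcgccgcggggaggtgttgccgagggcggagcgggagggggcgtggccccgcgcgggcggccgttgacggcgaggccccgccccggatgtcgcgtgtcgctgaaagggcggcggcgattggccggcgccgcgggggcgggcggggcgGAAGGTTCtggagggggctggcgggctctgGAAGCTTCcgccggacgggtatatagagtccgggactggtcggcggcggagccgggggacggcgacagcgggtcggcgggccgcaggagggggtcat
HSP90AB1: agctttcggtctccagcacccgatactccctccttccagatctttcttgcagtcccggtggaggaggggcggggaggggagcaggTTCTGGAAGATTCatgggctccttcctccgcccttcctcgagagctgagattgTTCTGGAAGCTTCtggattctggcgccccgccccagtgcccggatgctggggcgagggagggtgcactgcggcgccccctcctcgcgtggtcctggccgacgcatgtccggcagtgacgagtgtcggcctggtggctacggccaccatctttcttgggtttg
HSP90AA1: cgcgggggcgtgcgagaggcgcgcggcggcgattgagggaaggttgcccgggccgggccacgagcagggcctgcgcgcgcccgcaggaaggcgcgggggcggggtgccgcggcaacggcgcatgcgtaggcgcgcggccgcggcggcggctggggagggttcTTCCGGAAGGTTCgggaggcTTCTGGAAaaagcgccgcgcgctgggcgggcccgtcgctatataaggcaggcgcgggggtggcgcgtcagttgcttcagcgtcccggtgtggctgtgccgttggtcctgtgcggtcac

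The HSPA1A and HSPA1B windows are 92.0% identical over 301 aligned positions, and each held the 2-unit element once, starting 106 and 105 bases before the start. The DNAJB1 window held it at 77 and 47 bases before the start. The HSP90AB1 window held it at 165, 160, 112 and 107 bases and the HSP90AA1 window at 88, 83 and 68 bases before the start. Where 2 such matches overlap by 3 bases they make the 3-unit form, with GAA and TTC alternating at 2-base gaps, present 2 times in HSP90AB1 and 1 time in HSP90AA1. These windows were picked for holding the element: the other 2 windows of HSP90AB1, the other window of HSP90AA1 and 1 of the other 2 of DNAJB1 held none. A window was found for 77 of the 95 genes, 102 windows in all since some genes have several. Of these, 28 (27.5%) held the 2-unit form, against 13.5% of all 35116 RefSeq windows of this length. For genes that rose it was 3 of 10 windows (30%), those of HSPA1A, HSPA1B and CCT4. For genes that fell it was 3 of 13 (23.1%), those of DNAJB1 and HSP90AB1. For those tested and not called it was 27.5%. Windows of 1 gene or of near-identical copies are not independent, and these shares rest on few windows. The 3-unit form was in 7 of the 102 windows (6.86%), against 0.49% of all RefSeq windows. Genes with the 3-unit form were DNAJA1, DNAJB6, HSP90AA1, HSP90AB1, HSPA6, HSPA8 and HSPD1, of which HSP90AB1 alone was called. A match of letters does not show binding.

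HSPA13, an HSP70 relative with the ATPase domain but no peptide-binding domain, had 21.8, 21.6 and 28.6 CPM in the knockdown, against 11.5 and 10.9 CPM in the controls. Its log2 fold change was 1.10 (SE 0.25, edgeR adjusted p = 0.0289), 1.14 without control 1 and 1.05 without control 2, so either control gave a similar value. With offsets for GC content it missed the threshold (edgeR adjusted p = 0.106). HSPA8, the constitutive HSP70 of the cytosol, had 757, 784 and 1046 CPM in the knockdown, against 1585 and 583 CPM in the controls. The knockdown libraries lay between the controls, and the log2 fold change of -0.33 (edgeR adjusted p = 0.585) was 0.56 without control 1 and -0.88 without control 2. HSPH1, the main HSP110 protein, had 1438, 1261 and 1439 CPM in the knockdown, against 3078 and 1758 CPM in the controls (log2 fold change -0.81, SE 0.30, edgeR adjusted p = 0.0885). All its knockdown libraries were below both controls; its value was -0.35 without control 1 and -1.16 without control 2. DESeq2 called it (adjusted p = 0.0402), as did edgeR once GC offsets were used (0.0491). HSPA4L, another HSP110 protein, was at 0.27 (edgeR adjusted p = 0.327). HSPA6, the HSP70 gene with little expression outside stress, had 0 reads in every library.

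HSP90AB1, the constitutive cytosolic HSP90 (chromosome 6, 44246166 to 44253888, plus strand), had 2551, 2252 and 2503 CPM in the knockdown, against 5701 and 4051 CPM in the controls. The knockdown libraries were close together and well below both controls. The gene fell 2.00-fold (log2 fold change -1.001, SE 0.27, edgeR adjusted p = 0.0401), with -0.73 without control 1 and -1.23 without control 2. HSP90AA1, the inducible cytosolic HSP90 (chromosome 14, 102080738 to 102139749, minus strand), had 10255, 9248 and 10898 CPM in the knockdown, against 8889 and 8631 CPM in the controls. These knockdown libraries were all slightly above both controls, by too little to be called (log2 fold change 0.21, SE 0.28, edgeR adjusted p = 0.606), and the direction held without either control. A test of the difference between the 2 HSP90 genes was not made.

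Of the 8 small heat shock genes, 3 were tested. HSPB11, named for its fold but known as a subunit of the intraflagellar transport machinery of cilia (IFT25), had 120, 131 and 144 CPM in the knockdown, against 29.6 and 33.4 CPM in the controls. It rose 4.17-fold (log2 fold change 2.06, SE 0.21, edgeR adjusted p = 0.0124), and the value was 1.98 without control 1 and 2.15 without control 2, since the controls lay close together. HSPB1, the small heat shock protein HSP27, had 695, 644 and 698 CPM in the knockdown, against 164 and 1179 CPM in the controls. The knockdown libraries agreed closely and lay between controls that were 7-fold apart. Its log2 fold change was 0.01 (SE 0.68, edgeR adjusted p = 0.990), and it was -0.79 without control 1 and 2.04 without control 2, so these libraries give no direction. HSPB6 had 2.56, 5.63 and 4.30 CPM in the knockdown, against 9.31 and 8.37 CPM in the controls (log2 fold change -1.09, edgeR adjusted p = 0.0887).

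The mitochondrial chaperonin genes HSPD1 (the barrel) and HSPE1 (its lid) lie head to head on chromosome 2, and their products work together. HSPE1 had 784, 719 and 652 CPM in the knockdown, against 119 and 464 CPM in the controls. HSPD1 had 1566, 1389 and 1341 CPM in the knockdown, against 2256 and 1876 CPM in the controls. The knockdown libraries were thus above both controls for HSPE1 and below both for HSPD1, with log2 fold changes of 1.30 (SE 0.53, edgeR adjusted p = 0.114) and -0.53 (SE 0.23, edgeR adjusted p = 0.137), neither past the threshold. HSPE1 was at 0.63 without control 1 and 2.59 without control 2. Its exons also belong to the read-through gene HSPE1-MOB4 (log2 fold change 0.78, edgeR adjusted p = 0.232), and reads were counted for both. Exons of HSPD1 overlap those of HSPE1 and HSPE1-MOB4, and reads there were counted for each gene.

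**Figure D3:**
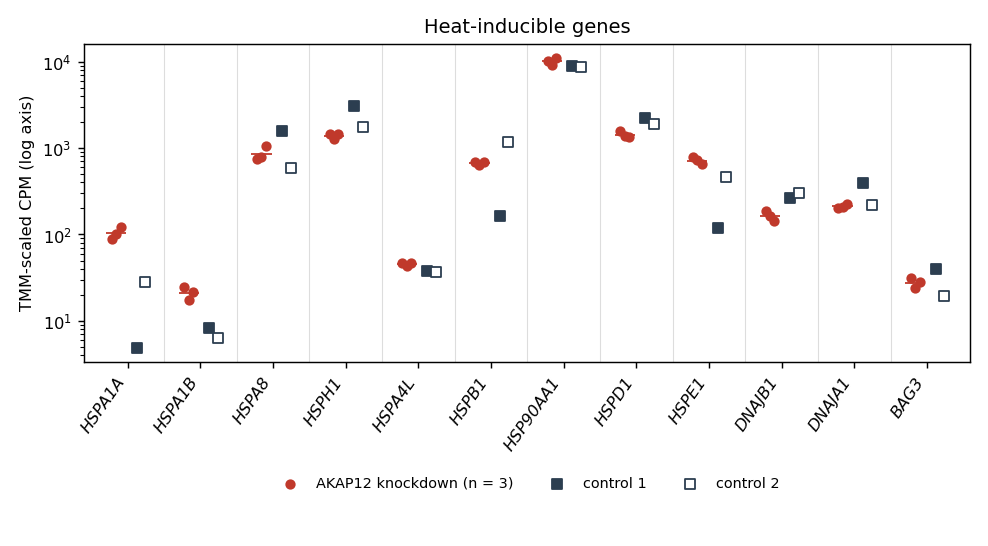
TMM-scaled CPM (log axis) of 12 heat-inducible chaperone genes in each library; circles are knockdown libraries with a line at their mean, squares controls. The knockdown libraries lie above both controls for 5 genes (HSPA1A, HSPA1B, HSPA4L, HSP90AA1 and HSPE1) and below both for 3 (HSPH1, HSPD1 and DNAJB1). Over all genes tested 31.6% lie above and 28.5% below. The knockdown values of HSPA8, HSPB1 and BAG3 lie between the controls.

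Among 12 genes listed as heat-inducible, HSPA1A and HSPA1B rose and DNAJB1 fell, and the other 9 (HSPA8, HSPH1, HSPA4L, HSPB1, HSP90AA1, HSPD1, HSPE1, DNAJA1 and BAG3) did not pass the edgeR threshold. That is 3 of 12 (25%), beside 22.6% of all genes, with a median log2 fold change of -0.03, beside 0.04 over all genes. HSF1, their main regulator, had 57.6, 57.1 and 60.4 CPM in the knockdown, against 80.8 and 63.5 CPM in the controls (log2 fold change -0.30, SE 0.20, edgeR adjusted p = 0.288). Exons of HSF1 overlap those of DGAT1, and reads there were counted for both genes. HSF2, a related factor, had 23.7, 27.7 and 22.4 CPM in the knockdown, against 3.18 and 19.0 CPM in the controls (log2 fold change 1.08, SE 0.60, edgeR adjusted p = 0.222). It was 0.37 without control 1 and 2.94 without control 2. The regulation of HSF1 by modification and release from chaperones is not seen in transcript counts.

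The 8 subunits of CCT sit once in each of its 2 rings and fold actin and tubulin. CCT4 and CCT8 rose, and the other 6 did not pass; differences between subunits were not tested. CCT4 had 435, 408 and 469 CPM in the knockdown, against 44.3 and 156 CPM in the controls. It rose (log2 fold change 2.12, SE 0.51, edgeR adjusted p = 0.0318), with 1.48 without control 1 and 3.30 without control 2. CCT8 had 375, 302 and 355 CPM in the knockdown, against 140 and 207 CPM in the controls. It rose by 0.99 (SE 0.25, edgeR adjusted p = 0.0350), or 0.74 without control 1 and 1.29 without control 2, and missed the threshold with GC offsets (edgeR adjusted p = 0.0567). Both genes therefore lay above the controls in all 3 knockdown libraries.

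CCT3 went the other way without passing in edgeR, with 409, 361 and 349 CPM in the knockdown, against 693 and 517 CPM in the controls (log2 fold change -0.70, SE 0.22, edgeR adjusted p = 0.0621). It passed by DESeq2 and limma-voom, and in the authors' deposited table its log2 fold change was -0.72 with an adjusted p of 0.0383. CCT7 had 515, 503 and 507 CPM in the knockdown, against 136 and 427 CPM in the controls (log2 fold change 0.85, SE 0.45, edgeR adjusted p = 0.1999). CCT2 had 509, 529 and 636 CPM in the knockdown, against 416 and 221 CPM in the controls (log2 fold change 0.81, edgeR adjusted p = 0.0995). The controls thus differed in opposite directions for these subunits, control 1 being the lower for CCT7 and the higher for CCT2. CCT7 was at 0.25 without control 1 and 1.90 without control 2, and CCT2 at 1.33 and 0.42. TCP1 was at 0.79 (edgeR adjusted p = 0.127), CCT5 at 0.72 (0.0651) and CCT6A at 0.37 (0.246), and exons of TCP1 overlap those of ACAT2. Summed over the 8 subunits the level was 4503 ± 172 CPM (SD, n = 3) in the knockdown, against 2698 and 3303 CPM in the controls. With all 8 subunits, 7 fold changes were positive and 1 negative under each scaling tried, and the median was 0.80 (0.43 without control 1, 1.12 without control 2), beside 0.04 over all genes. In edgeR 2 of the 8 passed (25%, beside 22.6% of all genes). DESeq2 called 3 higher and 1 lower, beside 2177 higher and 2274 lower of all 14536 genes.

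**Figure D4:**
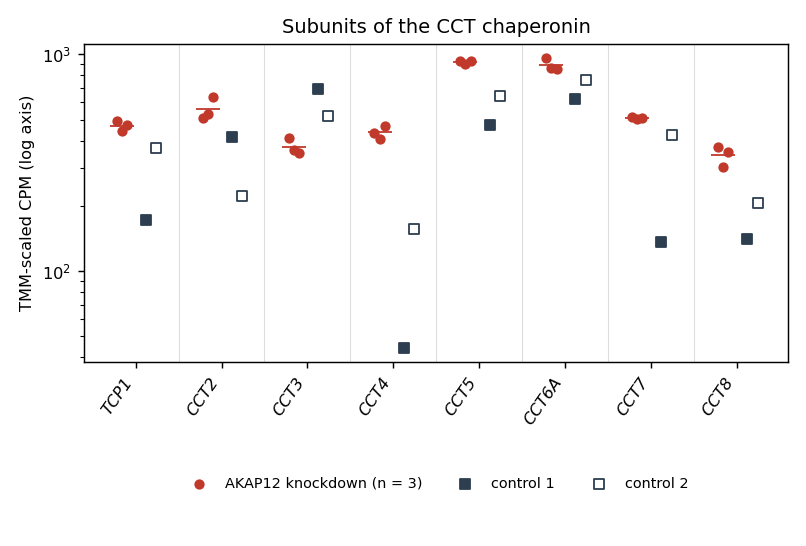
TMM-scaled CPM (log axis) of the 8 CCT subunit genes in each library; circles are the 3 knockdown libraries with a line at their mean, squares the 2 controls. The knockdown libraries lie above both controls for 7 subunits and below both for CCT3, and control 1 is the lowest point for 6 of them. Over all genes tested 60.1% did not overlap between the groups, 31.6% above and 28.5% below.

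Of the 42 DNAJ genes, 37 were tested, 2 rose and 4 fell (16.2%, beside 22.6% of all genes). DNAJC19, a part of the motor that pulls proteins across the mitochondrial inner membrane, had 38.9, 49.6 and 60.4 CPM in the knockdown, against 1.47 and 10.8 CPM in the controls. Control 1 held 6 reads of it, and the gene rose by 2.91 on the log2 scale (SE 0.66, edgeR adjusted p = 0.0281), or 2.20 without control 1 and 5.05 without control 2. DNAJA3, the partner of mitochondrial HSP70, had 54.0, 55.3 and 67.0 CPM in the knockdown, against 19.1 and 23.7 CPM in the controls. Its controls lay close together, and its log2 fold change was 1.45 (SE 0.23, edgeR adjusted p = 0.0164), 1.31 without control 1 and 1.61 without control 2. DNAJC15, which is related to DNAJC19, had 165, 152 and 229 CPM in the knockdown, against 110 and 90.5 CPM in the controls (log2 fold change 0.86, SE 0.25, edgeR adjusted p = 0.0507). It was named after its values were seen, and by DESeq2 it passed (adjusted p = 0.0334).

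DNAJB1, the J-domain partner of cytosolic HSP70 in the heat shock response (chromosome 19, 14514764 to 14518559, minus strand), had 186, 165 and 142 CPM in the knockdown, against 265 and 299 CPM in the controls. It fell (log2 fold change -0.78, SE 0.20, edgeR adjusted p = 0.0387), with -0.86 without control 1 and -0.69 without control 2, and missed the threshold without a filter on low counts (edgeR adjusted p = 0.0510). DNAJC18 had 16.7, 13.4 and 12.7 CPM in the knockdown, against 62.0 and 25.9 CPM in the controls (log2 fold change -1.61, SE 0.38, edgeR adjusted p = 0.0302; -0.86 without control 1, -2.12 without control 2). DNAJC4 had 4.91, 7.10 and 5.78 CPM in the knockdown, against 37.0 and 12.3 CPM in the controls (log2 fold change -2.03, SE 0.47, edgeR adjusted p = 0.0296; -1.06 without control 1, -2.65 without control 2). In both, control 1 was more than 2-fold above control 2. DNAJC30, a mitochondrial J-domain protein, had 21.9, 19.7 and 18.8 CPM in the knockdown, against 42.1 and 30.2 CPM in the controls (log2 fold change -0.84, SE 0.24, edgeR adjusted p = 0.0456). Its value was -0.58 without control 1 and -1.07 without control 2, and it missed the threshold in 5 other settings with all libraries, among them limma-voom (adjusted p = 0.0541). DNAJC2, the ribosome-bound J-domain protein, was at 0.47 (edgeR adjusted p = 0.167), with exons that overlap PMPCB. DNAJA1, the most read DNAJA gene, was at -0.55 (edgeR adjusted p = 0.180). Without control 1 DNAJA1 was at -0.063, and without control 2 at -0.92.

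Of the nucleotide exchange factors, HSPBP1 fell and no BAG gene passed. HSPBP1 (chromosome 19, 55262222 to 55280383, minus strand) had 55.8, 46.6 and 57.9 CPM in the knockdown, against 536 and 175 CPM in the controls. It fell 6.64-fold (log2 fold change -2.73, SE 0.44, edgeR adjusted p = 0.0167), with -1.71 without control 1 and -3.33 without control 2. All knockdown libraries were more than 3-fold below the lower control. The 6 BAG genes had log2 fold changes of -0.42 to 0.32, with edgeR adjusted p values of at least 0.203. BAG3, the stress-inducible member, had 31.0, 23.8 and 28.5 CPM in the knockdown, against 39.9 and 19.6 CPM in the controls. BAG5 was at -0.14 (edgeR adjusted p = 0.655), and its knockdown values also overlapped the controls.

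**Figure D5:**
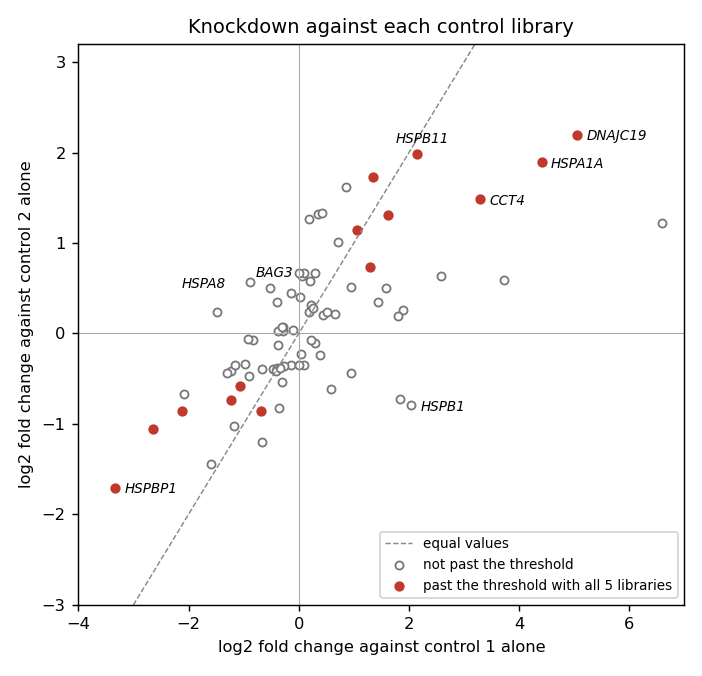
Log2 fold change of the 80 tested chaperone genes with control 1 as the only control (x axis) and with control 2 as the only control (y axis); filled points passed the threshold with all 5 libraries. Filled points lie in the upper right or lower left, and 20 open points, among them HSPA8 and HSPB1, change sign between the axes.

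The direction depended on which control was used for 20 of the 80 tested genes, none of which was called with all 5 libraries. With control 2 as the only control 22 genes passed as higher and 15 as lower (20.3% and 17% of all genes), and with control 1 as the only control 23 and 23 (30.5% and 27.6% of all genes). These fits take their spread from the knockdown libraries and assume that the lone control would vary like them. The longest GENCODE transcript had a median GC of 48.3% in the 8 genes that rose and 53.7% in the 6 that fell, against 44.9% in all 80 tested. Over all genes the medians were 45.6% for those that rose, 55.6% for those that fell and 48.4% for all with a value. The genes that rose were thus above the median of their own set here and below it over all genes. With GC offsets the counts were 6 higher and 9 lower, beside 9.51% and 10.8% of all genes; what part GC content has in each call was not tested further.

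Transcripts of genes whose products work with these chaperones also moved both ways. From a list of 67 partner and regulator genes in the count files, all tested, 7 rose and 11 fell (26.9%, beside 22.6% of all genes), with a median log2 fold change of 0.06. STIP1, which links HSP70 to HSP90, had 303, 255 and 218 CPM in the knockdown, against 1086 and 698 CPM in the controls. It fell (log2 fold change -1.79, SE 0.27, edgeR adjusted p = 0.0158), with -1.43 without control 1 and -2.07 without control 2. Among prefoldin genes, whose complex hands actin and tubulin to CCT, PFDN5 fell by 1.67 on the log2 scale (edgeR adjusted p = 0.0186), while VBP1 rose by 1.38 (0.0209). PFDN1 (log2 fold change 0.39), PFDN2 (-0.82), PFDN4 (0.12) and PFDN6 (-0.33) did not pass. TXNDC9, a regulator of CCT, rose by 1.92 (edgeR adjusted p = 0.0159), and PDCL3, of a related family, fell by 0.83 (0.0440). Of the exchange factors of mitochondrial HSP70, GRPEL1 was at -1.75 (edgeR adjusted p = 0.0275) and GRPEL2 at 2.11 (0.0295). GRPEL1 was -0.87 without control 1 and -2.30 without control 2, and GRPEL2 1.58 and 3.19. NUDCD2 had a log2 fold change of 2.83, MKKS of 1.47 and the mitochondrial disaggregase gene CLPB of -1.42 (edgeR adjusted p = 0.0131, 0.0149 and 0.0195). STUB1, the ubiquitin ligase that marks chaperone clients, was at -2.52 (edgeR adjusted p = 0.0252) with exons that overlap JMJD8. It was -1.09 without control 1 and -3.23 without control 2, since control 1 had 827 CPM and control 2 had 189 CPM. VBP1, PFDN1, PFDN2, PFDN4, PFDN6, PDCL3, GRPEL1, GRPEL2 and STUB1 were named after their values were seen.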

How the data were processed

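Counts are the authors' deposited whole-number reads per gene, counted over exons with featureCounts 1.6.2, with reads overlapping several genes counted for each and no strand option, per the file headers. Overlapping genes therefore cannot be told apart, and 21 of the 95 members overlap another gene. STAR 2.7, DESeq2 1.22 and hg38 are listed in the submitters' processing notes. Trimming and UMI handling: not given in the sources used here. The authors' deposited table gives a log2 fold change, its error, a mean signal, a test statistic (score) and p-values; the sign of its fold changes was taken from how they tracked the edgeR values (r = 0.999 across genes, which are not independent replicates).

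Genes were filtered with filterByExpr (minimum count 10), scaled with TMM and tested in edgeR 4.0.16 under R 4.3.3 (quasi-likelihood, two-sided), with Benjamini-Hochberg adjustment over all 14536 genes, threshold 0.05. SE is the absolute log2 fold change over the square root of F. SD covers the 3 knockdown libraries. An exact permutation test of 3 libraries against 2 cannot go below p = 0.1. Alternatives used DESeq2 1.42.0, limma-voom 3.58.1, other scalings and filters, a replicate block and left-out libraries; GC offsets (lowess span 0.2) were chosen after seeing the data. The fitting code was tested on simulated data. Members and lists were chosen with earlier results of these data known. Named genes were, per role, up to 3 called with the smallest p (log2 CPM of at least 3) and the one with the highest mean CPM, all CCT subunits, 12 heat-inducible genes, HSF1, HSF2 and the 6 called partners with the smallest p. Others are marked in the text; DNAJC30, HSPA6 and HSPB6 were also named after their values were seen.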

Additional observations from a re-analysis of the deposited data

How the results depend on the processing

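Against the counts of chaperone genes, 8 higher and 6 lower of 80, DESeq2 gave 13 lower, beside 2274 of all 14536 genes. Library size only gave 3 lower, beside 982 of all 14536 genes. With the replicate number as a block, 3 were higher and 1 lower, and the partner genes had 1 higher and 0 lower, with 210 genes called in all. Deviations from the group means of same-numbered libraries had r = -0.05 (number 1) and -0.08 (number 2), so the numbers were not taken to pair the samples. Leaving out 1 library gave 0 to 23 chaperone genes higher and 0 to 23 lower, and 0 to 27 partner genes higher and 0 to 21 lower; the 0 counts came without a knockdown library, where edgeR called no gene and 3774 to 4109 had an unadjusted p under 0.05. Counting only members that share no reads gave 6 higher and 6 lower of 56 tested (21.4%, beside 22.6% of all genes). AKAP12 passed the threshold by DESeq2 (log2 fold change -1.09), limma-voom (-0.98), no filter (-0.996) and the stricter filter (-1.06). It also passed with TERT and short RNA genes removed (-1.04) and with GC offsets (-1.16). It missed with RLE size factors (edgeR adjusted p = 0.0505), library size only (0.0716) and the replicate block (0.298), and without any one knockdown library. Its log2 fold change ran from -1.42 to -0.52 with 1 library left out. HSPA1A plus HSPA1B ran from 1.86 to 3.24 with 1 library left out, missing the threshold without a knockdown library, and passed in every other setting. For 39 named genes, 313 of the other values with all libraries kept direction and side of the threshold, 24 lost and 8 gained a call. Directions turned only in uncalled genes: HSPB1 was -0.0032 with the stricter filter, BAG5 0.043 and BAG3 0.17 by library size only, BAG3 0.061 by limma-voom, and HSPA4L -0.056 and HSF1 0.029 with GC offsets. With 1 library left out HSPB1 ran from -0.79 to 2.04, BAG5 from -0.35 to 0.10, HSPA8 from -0.88 to 0.56 and BAG3 from -0.52 to 0.51. The cause of these changes was not tested. The 15 untested genes had at most 9 reads in a library, and 6 of them had none in any. Whether depth or lack of expression lies behind this was not tested.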
